A study of Mus musculus with 2 samples.

Results

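The 6 loci described here, Prr33, 1700020I14Rik, 2900097C17Rik, 2310065F04Rik, Atcayos and Gm20659, are annotated long noncoding genes that carried many reads in mouse gastrocnemius, the large calf muscle. They were chosen by name from among the most read noncoding genes, so their read totals are a description and support nothing further. They make up 6 of the 14900 annotated genes with reads, and 6 of the 1263 long noncoding ones. Muscle was sequenced with long reads in 2 libraries, labelled as biological replicates 1 and 2, from male B6CASTF1/J mice (a first-generation cross with the CAST strain) aged 18 to 20 months, each from 2 µg of total RNA with added spike-in RNA. There was 1 group and no treatment or second condition. Both labels give the same strain-level donor entry and separate biosamples, and the labels do not say how many animals each library stands for. Every test below therefore compares these 2 libraries only, and differences may be technical.

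A long noncoding RNA is a transcript with no recognised protein product. Some, such as Cyrano and Norad, act in the cytoplasm by binding a small RNA or an RNA-binding protein. Others are known mainly from their position, beside or across a coding gene that the tissue uses heavily. In skeletal muscle the gene cluster of fast myosin heavy chains is the classical example of such a neighbourhood.

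The tables held 1509380 reads in replicate 1 and 1173233 in replicate 2, and a level is the reads of a gene per 1000000 reads of its library (CPM). Markers of muscle fibres were present for 8 of 8 genes, at a summed 308449 and 302988 CPM, while neuron markers summed to 1.33 and 2.56 CPM with Snap25 at 0. Slow-fibre markers differed between the libraries, at a summed 174 and 3210 CPM, and all 4 were higher in replicate 2. Of the 8 fibre genes, the fast-fibre Mylpf (log2 ratio -1.47) and Pvalb (-1.49) were called lower. Calls higher in replicate 2 were also made for 2 of 4 endothelial markers (summed 33.1 and 86.1 CPM), 2 of 3 smooth muscle and pericyte markers (191 and 369 CPM), 1 of 3 adipocyte markers (16.6 and 47.7 CPM) and 1 of 3 Schwann cell markers (24.5 and 52.0 CPM), and 1 of 3 immune markers (33.8 and 13.6 CPM) was called lower. In bulk muscle, fewer cells of a type and less RNA per cell cannot be told apart.

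The 6 loci held 1438 reads in replicate 1 and 1481 in replicate 2, which was 20.5% and 26.3% of all reads of long noncoding genes. Their summed level was 953 and 1262 CPM, with a mean of 1108 ± 219 (SD, n = 2). By reads over both libraries they ranked 1, 2, 4, 5, 8 and 10 among long noncoding genes. The genes between them, named here after their values were seen, were Ndufb1-ps with 592 reads, Cct6a with 410, Nctc1 with 348 and Tmem134 with 195. Just inside the list stood Gm20659 with 171 reads, and just outside it Ptpmt1 with 155 and the imprinted H19 with 143. Long noncoding genes are taken here by their GENCODE gene type, which includes processed transcripts. Cct6a, Tmem134 and Ptpmt1 are in the set by that type although they carry the names of coding genes. The ranks and shares of long noncoding genes rest on this set.

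Of a wider list of 53 names of noncoding loci known from other work, 45 were annotated under these names and 33 had reads. Among the names not annotated were Cyrano and Oip5os1, which are other names of 1700020I14Rik. None of the 33 with reads had a larger total than any of the 6 loci. The 5 with the most reads were H19 (58 and 85 reads), Neat1 (45 and 74), the nuclear paraspeckle RNA, Gm29773 (33 and 59), Myhas (44 and 28), and Gas5 (42 and 22), a snoRNA host gene. Of the 16 that could be tested, 3 were higher in replicate 2, 1 was lower and 12 had no call, with a median log2 ratio of -0.43 against 0.19 over all genes tested.

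**Figure D1:**
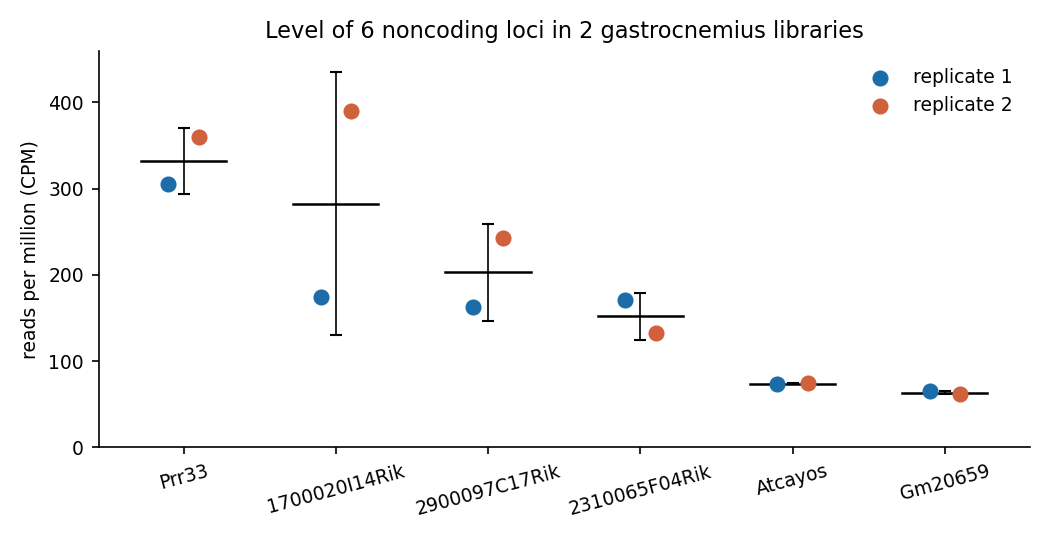
Level of each locus in CPM (y axis) in replicate 1 (blue) and replicate 2 (orange). Black lines are the mean and its SD over the 2 libraries. The libraries lie close together for Atcayos and Gm20659, and furthest apart for 1700020I14Rik, at 175 and 390 CPM.

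Levels ordered the loci differently in each library. Prr33 led in replicate 1 with 305 CPM, and 1700020I14Rik in replicate 2 with 390 CPM. The means, each over 2 libraries, were 333 ± 38.4 CPM for Prr33, 283 ± 152 for 1700020I14Rik, 203 ± 56.5 for 2900097C17Rik, 152 ± 26.8 for 2310065F04Rik, 73.8 ± 0.434 for Atcayos and 63.6 ± 1.91 for Gm20659. Neighbours among the 4 highest overlapped within their spread, and each of these 4 stood above Atcayos and Gm20659 in both libraries. Atcayos was above Gm20659 in both libraries, with 111 against 98 reads in replicate 1 and 87 against 73 in replicate 2. Their small SDs over 2 libraries do not measure counting error, and this order was not tested. CPM is not corrected for length, so the order describes reads and not molecules per base. The coding genes nearest in level over both libraries, by Euclidean distance on the log2(CPM + 1) scale, were Ppp3ca for Prr33, Hspb6 for 1700020I14Rik, Got1 for 2900097C17Rik, Tubb4b for 2310065F04Rik, Spast for Atcayos and Chrac1 for Gm20659. With 2 libraries this likeness says only that the levels were alike.

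1 of the 6 loci was called different in level between the libraries, against a background of 10.3% of the 9032 genes tested. It was higher in replicate 2, as were 8.24% of those genes. Reads of each gene and of the rest of its library were compared by Fisher's exact test (two-sided) with p adjusted by Benjamini-Hochberg, and a call needed an adjusted p below 0.05 and at least a 2-fold ratio on the log2(CPM + 1) scale. Calls over all genes were 80.2% higher in replicate 2, and the median log2 ratio was 0.19. With TMM scaling this split was 54.3% higher, and with DESeq2 size factors 53.5%.

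1700020I14Rik is the mouse Cyrano gene, listed by RefSeq as Oip5os1. Cyrano is known for a deeply conserved site that pairs almost fully with the microRNA miR-7 and directs its destruction. The gene lies on chromosome 2 (mm10) at 119594297-119607502, plus strand, in the annotation an intergenic noncoding gene of 2 transcripts. Its nearest coding neighbours were Chp1 (80 and 78 reads), 7269 bases before it, and Oip5, 2009 bases after it, which had 0 reads in both libraries. The site and its partner are printed here because the 2 transcripts differ in it. In the microRNA, from the RefSeq table, capitals mark the seed, bases 2 to 8. In the site, from the GENCODE M21 transcript at chr2:119602137-119602161 on the plus strand, capitals mark the run of 13 bases and the 7 seed-match bases that pair with it without a break.
mmu-miR-7a-5p: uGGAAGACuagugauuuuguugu
1700020I14Rik-202 site: ACAACAAAATCACcaatGTCTTCCa

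The seed match on its own was common, found in 10.7% of the 15671 annotated long noncoding transcripts. A seed match with a run of at least 10 bases pairing to the 3′ part of the microRNA just before it was found in 1 transcript of this set, 1700020I14Rik-202. The transcript of 8300 bases holds 2 seed matches, at positions 762 and 2952, of which the second is the long site. The shorter 1700020I14Rik-201, of 1381 bases, ends before it and keeps only the other match. RefSeq's model of the gene ends at 119600746, also short of the site.

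The reads covered both forms. 1700020I14Rik-202 had 119 and 209 reads, or 45.1% and 45.6% of the gene's reads in replicates 1 and 2. 1700020I14Rik-201 had 60 and 125 reads, and an incomplete model made of the last exon alone (7915 bases) had 76 and 113. Models that include the long miR-7 site, complete or not, held 199 of 264 reads in replicate 1 (75.4%, exact 95% interval 69.7% to 80.5%) and 329 of 458 in replicate 2 (71.8%, 67.5% to 75.9%). Most Cyrano reads were thus placed on site-bearing models in both libraries, and the intervals of the libraries overlap. The ends of these models are annotated ends to which reads were assigned, and not the end of every read.

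The transcripts also differ in where the middle exon ends. The downstream donor, after base 119596511, was used by 127 of 188 reads with this choice in replicate 1 (67.6%) and by 216 of 344 in replicate 2 (62.8%). The upstream donor, after base 119596342, took the other 61 and 128 reads. Both libraries used both donors in about the same proportions.

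Cyrano was the locus with a called level difference. Its 264 reads in replicate 1 (175 CPM) and 458 in replicate 2 (390 CPM) gave a log2 ratio of 1.15 with an adjusted p of 2.30e-24 by Fisher's exact test. The ratio fell just under 2-fold, and the call was lost, with TMM scaling (0.96) and DESeq2 size factors (0.95). Ratios of all genes rose with transcript length, from a median of -0.53 in the shortest of 20 length bins (54 to 738 bases) to 0.75 in the longest (6882 bases and above). Cyrano falls in the longest bin, and relative to genes of like length its log2 ratio was 0.40. All 4 slow-fibre markers and some endothelial, smooth muscle, adipocyte and Schwann cell markers were also called higher in replicate 2, and 2 fast-fibre genes and 1 immune marker lower. The part of length and of these markers in this result was not tested beyond these values.

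**Figure D2:**
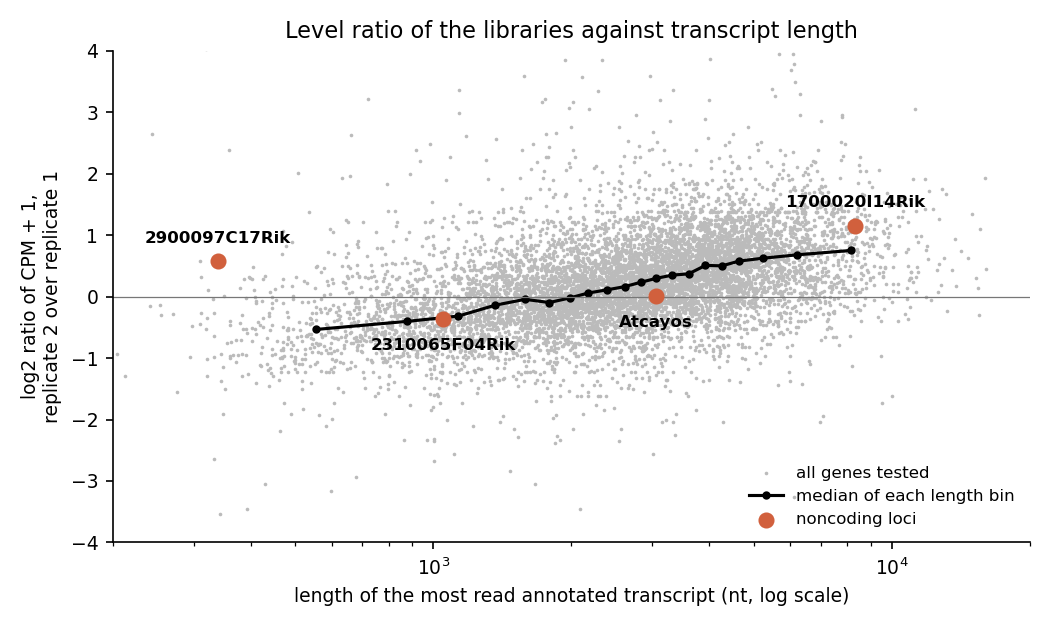
Log2 ratio of replicate 2 over replicate 1 (y axis) against transcript length in bases, taken from each gene's most read annotated transcript (x axis, log scale) for 8625 genes (grey), of which 31 lie outside the axes. The black line joins the medians of 20 length bins, and orange points are the 4 loci with reads on an annotated transcript. 1700020I14Rik lies 0.40 above the median of its bin and 2900097C17Rik lies 1.11 above that of the shortest.

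2900097C17Rik is the mouse Norad gene, a noncoding RNA known for holding many copies of the motif bound by Pumilio proteins, repressors of messenger RNA stability. It lies on chromosome 2 at 156388065-156392979, minus strand, between Cnbd2 (1 and 0 reads) and Epb41l1 (1 and 6 reads). Both annotated transcripts have 1 exon, 2900097C17Rik-202 of 4915 bases and 2900097C17Rik-201 of 339 bases, which lies whole inside it at positions 151 to 489. The motif TGTANATA, searched on the transcript strand, occurred 11 times in 2900097C17Rik-202, between positions 651 and 3526, and 0 times in 2900097C17Rik-201. The windows printed here, from GENCODE M21, show the first, a pair that lies 9 bases apart, and the last, with the motif in capitals. They lie at chr2:156392310-156392341, chr2:156390510-156390550 and chr2:156389435-156389466 on the minus strand.
2900097C17Rik-202 first motif: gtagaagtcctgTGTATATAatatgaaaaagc
2900097C17Rik-202 motif pair: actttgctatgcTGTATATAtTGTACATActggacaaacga
2900097C17Rik-202 last motif: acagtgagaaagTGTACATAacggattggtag

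At least 1 such motif occurred in 10.4% of the 15671 annotated long noncoding transcripts, and 2 transcripts had 11 or more, the other belonging to Kcnq1ot1. The motif density of 2900097C17Rik-202 was 2.24 per 1000 bases. Base composition also separates the transcripts, with 45.5% G and C in 2900097C17Rik-202 and 70.5% in 2900097C17Rik-201. A match is a description of the letters and not a measured binding site.

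Norad reads shifted between its transcripts. In replicate 1, 140 reads were placed on 2900097C17Rik-201 and 105 on 2900097C17Rik-202, and in replicate 2 the numbers were 215 and 70. The short form thus held 56.9% of Norad reads in replicate 1 (exact 95% interval 50.5% to 63.2%) and 75.4% in replicate 2 (70.0% to 80.3%), and the intervals do not overlap. This difference of 18.5 percentage points had an adjusted p of 0.00106 by Fisher's exact test. It was the 1 call among the 4 loci testable for the share of their most read annotated transcript, against a background of 2.36% of 4574 genes in either direction and 1.79% higher in replicate 2. Norad had 1 further read, on an unannotated model, in replicate 1 and 0 in replicate 2. How reads were divided between nested transcripts of 1 exon is not given in the sources used here.

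By level, the motif-free short form had 92.8 and 183 CPM, and the motif-bearing long form 69.6 and 59.7 CPM. The gene as a whole had 246 reads (163 CPM) and 285 reads (243 CPM), a log2 ratio of 0.57 with an adjusted p of 7.13e-05, under the 2-fold minimum of a call. Relative to genes with a most read transcript of like length the ratio was 1.11 and past that minimum, which sets a gene of 2 very different lengths by its short form only. The larger Norad total of replicate 2 thus lay in reads placed on 2900097C17Rik-201.

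The opposite strand of Norad was also read. Both libraries held an unannotated locus of the antisense class on the plus strand, of 224 reads (148 CPM) in replicate 1 at 156388065-156391575 and of 221 reads (188 CPM) in replicate 2 at 156388065-156391514. Among all antisense-class loci of a library it ranked 7 of 6415 and 4 of 8504 by reads. It starts at the base where the annotated Norad transcript ends and shares no base with 2900097C17Rik-201. How the strand of a read was set is not given in the sources used here, so reads of a gene and of its antisense partner cannot be told apart with certainty.

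2310065F04Rik is known as linc-Myh, a noncoding gene of the fast myosin heavy chain cluster, described in fast muscle fibres. It lies on chromosome 11 at 67112461-67120080, minus strand, 10169 bases after the embryonic Myh3 and 50946 bases before Myh2, with the adult fast myosins Myh1 and Myh4 further on. Its 258 reads in replicate 1 (171 CPM) and 156 in replicate 2 (133 CPM) gave a log2 ratio of -0.36 with an adjusted p of 0.0588 and no call. Against genes of like length the ratio was -0.04, with the length taken from 2310065F04Rik-202 (1049 bases). Only 3.10% and 10.3% of the locus' reads were on that transcript, so this value sets the locus by a minor form.

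Of the 4 myosins of the cluster that could be tested, 3 were called higher in replicate 2. Myh1 had 1112 and 5679 CPM (log2 ratio 2.35), Myh2 148 and 2298 CPM (3.94), and Myh3 0 and 14 reads with an adjusted p of 0.000127 by Fisher's exact test. Myh4, the fastest isoform and the most read, had 22961 and 29395 CPM, a log2 ratio of 0.36 in the same direction with an adjusted p of 3.77e-234, and missed a call by the 2-fold minimum only. Myh8 and Myh13 had 1 read in each library. The slow myosin Myh7, on another chromosome, had 78.8 and 2326 CPM and was called higher too. The ratio of linc-Myh, -0.36, had the other sign and no call. None of the ratios in this paragraph is set against genes of like length, although ratios of all genes rose with transcript length.

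Few linc-Myh reads were on annotated transcripts. Only 2310065F04Rik-202 had any, with 8 reads (3.10%) in replicate 1 and 16 (10.3%) in replicate 2, and 2310065F04Rik-201 had 0, which at this depth allows up to 1.16% and 1.92%. The reads were spread over 45 models in replicate 1 and 29 in replicate 2. Over both libraries these made 52 intron chains, of which 19 were found in both, and those held 87.6% and 94.2% of the reads. So most chains were seen in 1 library only, while most reads lay on chains that recurred.

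The chains differed at several introns and ends, and the junctions with the most reads besides that of an annotated intron of 972 bases shared 1 acceptor. This acceptor, at base 67114117, was joined to 3 donors in both libraries. The most distant donor, after base 67114922, makes an unannotated junction, and the other 2 are annotated. Their exon sequence is printed from 2310065F04Rik-201, whose longer exon holds the bases that follow the inner donors, with those first 2 bases in capitals. The windows lie at chr11:67114912-67114941, chr11:67114771-67114800 and chr11:67114654-67114673 on the minus strand. The last stops at the end of the exon.
Donor after 67114922: tgctgagctgcgcatcgccaGTaagacatt
Donor after 67114781: agcaacttcatagacatcagGCaagcatgc
Donor after 67114654: ggagaaataaactagaagag

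The unannotated donor is followed by GT, the usual start of an intron, and the middle one by GC, a less common alternative. Of the reads on these 3 junctions, the unannotated donor had 53 of 211 in replicate 1 (25.1%, exact 95% interval 19.4% to 31.5%). In replicate 2 it had 22 of 127 (17.3%, 11.2% to 25.04%). The middle donor took 78 reads (37.0%, 30.4% to 43.9%) and 65 reads (51.2%, 42.2% to 60.1%). The third took 80 reads (37.9%) and 40 reads (31.5%). These counts include models that start at base 67114922 itself and so cannot show use of the unannotated donor. The most read of them had 45 and 13 reads on the third donor, and 21 and 11 on the middle one. The share of the unannotated donor among reads that reach past it is therefore higher than printed, and that of the third donor lower. Each donor was used in both libraries, and the printed intervals of the libraries overlap for all 3.

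A short annotated intron of 149 bases near the 5′ end was kept more often than it was removed at its annotated ends. In replicate 1, spliced models running through it held 109 reads, against 23 with exactly this intron removed. That was 82.6% kept (exact 95% interval 75.0% to 88.6%). In replicate 2 there were 49 against 28 (63.6%, 51.9% to 74.3%). Reads that removed these bases with another splice site are in neither count. Among them were introns of 418 bases (5 and 3 reads), 241 bases (4 and 3) and 3525 bases (4 and 2). Counting such reads as removed would lower the kept share in both libraries. The intervals of the exact counts do not overlap, which was not examined with those reads included. This difference was not among the tests run. Models with this intron kept are incomplete or unannotated by class, which takes them out of the annotated share.

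The 5′ end of most linc-Myh models was base 67116841, the start of 2310065F04Rik-202, with 149 and 86 reads. Only 3 and 3 reads began at 67120080, the annotated start of 2310065F04Rik-201. A further 70 and 24 reads were on models starting at 67114922, the same base as the unannotated donor. In replicate 1 only, 7 reads lay on models starting at 67143935, upstream of the annotated gene. RefSeq places the promoter of this gene at the far start. Class names can also differ for 1 structure, since the same model of 2 exons and 1386 bases was of class NNC (an unannotated splice site) with 11 reads in replicate 1 and of class genomic with 12 reads in replicate 2.

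**Figure D3:**
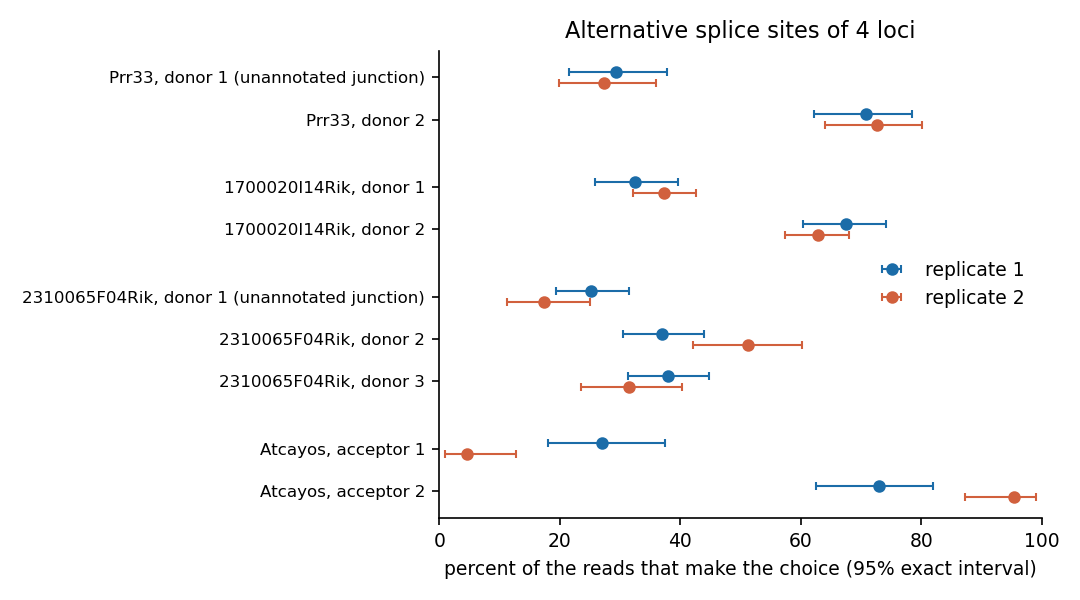
Percent of reads at each alternative splice site (x axis) with exact 95% intervals, per locus, for replicate 1 (blue) and replicate 2 (orange). Sites are numbered from the 5′ end of the gene. The libraries overlap at every donor of Prr33, 1700020I14Rik and 2310065F04Rik and are apart at the Atcayos acceptors.

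The other 3 loci lie across coding genes on the opposite strand. For each model it was counted whether its exons overlap an exon of a coding gene on the other strand. Such models held over 50% of the reads at 3 of the 6 loci, Prr33, Atcayos and Gm20659, and no reads at the other 3. Among all 37 long noncoding genes that reached 20 reads in both libraries, 15 were over 50% and 17 were at 0.

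Prr33 is named as a proline-rich coding gene, but is annotated as a noncoding gene in mouse by both GENCODE M21 and RefSeq. It lies on chromosome 7 at 142491074-142506771, minus strand, across the 5′ part of Tnnt3 (3520 and 1632 reads), which encodes fast skeletal troponin T, and across the 3′ end of Lsp1 (56 and 29 reads), a leukocyte protein gene. Its 461 reads in replicate 1 (305 CPM) and 422 in replicate 2 (360 CPM) gave a log2 ratio of 0.24 with an adjusted p of 0.0679 and no call. None of these reads was on Prr33-201 or Prr33-202, the annotated transcripts, which allows up to 0.651% and 0.711% of its reads.

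The reads fell in 2 separate places, as the locus map shows. The larger place is within Tnnt3. An unannotated model of 1 exon there took 252 reads of replicate 1 and 251 of replicate 2, and 1 more read lay on a longer model. It ran from base 142504065 to 142502740 in replicate 1, and both of these bases are exon ends of Tnnt3 on the other strand. Its 3′ end was the same in replicate 2, whereas its 5′ end was placed at 142507523. The models covered 4.60% and 6.33% of their length with Tnnt3 exons, and in replicate 1 shared no base with an annotated exon of Prr33. As strand handling is not given, these reads cannot be told apart with certainty from reads of Tnnt3.

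Together the models in Tnnt3 held 54.7% of Prr33 reads in replicate 1 (exact 95% interval 49.99% to 59.3%) and 59.7% in replicate 2 (54.9% to 64.4%), or 167 and 215 CPM. Tnnt3 itself had 2332 and 1391 CPM, a log2 ratio of -0.75 under the 2-fold minimum of a call. With genomic-class reads left out, Prr33 had 90.1 and 110 CPM.

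The other place is the 3′ part of Prr33, whose last exons lie within an intron of Lsp1. Spliced models here held 136 and 129 reads, 29.5% and 30.6% of the locus. The most read, with 85 and 86 reads, was an incomplete match of 2 exons, 142496875-142496971 and 142491074-142493135. It runs through an annotated intron of 146 bases, which 125 of these 136 reads kept in replicate 1 and 120 of 129 in replicate 2. Exactly this intron was removed in 3 and 2 reads. Longer unannotated introns that hold it were removed in the others, of 586 bases (6 and 4 reads) and 572 bases (2 and 3). The junction to the annotated first exon, from base 142506437, had 0 reads in both libraries. Genomic-class models of 1 exon at the same 3′ end added 73 reads in replicate 1, on a model of 713 bases, and 41 in replicate 2, on a model listed with a length of 1 base. They share the 3′ end only.

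The next model, with 34 reads in each library, differs in the donor of the upstream exon. The exon is printed as in Prr33-202 (GENCODE M21, chr7:142496875-142496971, minus strand), with the 14 bases between the inner and the outer donor in capitals.
Prr33-202 exon: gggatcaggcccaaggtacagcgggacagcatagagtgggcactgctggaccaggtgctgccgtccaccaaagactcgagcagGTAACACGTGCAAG

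The inner, unannotated donor falls before a GT, and was used by 38 of 130 reads with this choice in replicate 1 (29.2%, exact 95% interval 21.6% to 37.8%) and by 35 of 128 in replicate 2 (27.3%, 19.8% to 35.9%). The outer, annotated donor took the other 92 and 93 reads. The proportion was thus nearly the same in the 2 libraries.

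**Figure D4:**
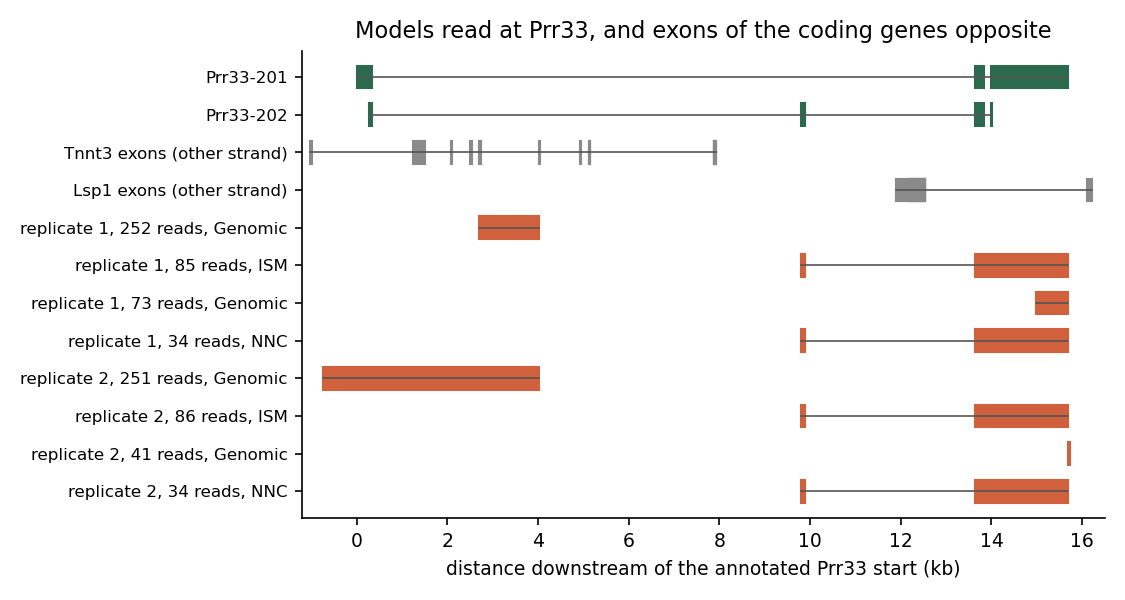
Prr33 locus, with distance downstream of its annotated start in kb (x axis). Green shows the exons of the 2 annotated transcripts, grey the exons of the coding genes on the other strand, and orange the 4 most read models of each library with their reads and class. The models with 252 and 251 reads lie among Tnnt3 exons, and the spliced models lie at the 3′ end.

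Atcayos is annotated as antisense to Atcay, which encodes caytaxin, a protein of neurons. It lies on chromosome 10 at 81194609-81210877, plus strand, and spans all of Nmrk2, which encodes the nicotinamide riboside kinase of muscle, as well as the 3′ part of Atcay. Atcay itself had 1 read in each library, while Nmrk2 had 676 and 483 reads (448 and 412 CPM). Reads of Atcayos numbered 111 in replicate 1 (73.5 CPM) and 87 in replicate 2 (74.2 CPM), a log2 ratio of 0.01 with an adjusted p of 1. So the neuronal gene after which the locus is named was under the floor of 3 reads, while the antisense locus and the gene inside its intron were read in both libraries with no call.

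The RefSeq promoter window of Atcayos (GRCm38.p6, chr10:81194441-81194740, plus strand, 250 bases before its start and 50 after) is shown because 5 motifs of muscle promoters were searched in it on both strands. The E-box was searched as CANNTG and the MCAT box as CATTCC. The TATA box was searched as TATAAA, and the MEF2 and CArG boxes by their named consensus. Matches are in capitals, and no match overlaps another here.
Atcayos promoter: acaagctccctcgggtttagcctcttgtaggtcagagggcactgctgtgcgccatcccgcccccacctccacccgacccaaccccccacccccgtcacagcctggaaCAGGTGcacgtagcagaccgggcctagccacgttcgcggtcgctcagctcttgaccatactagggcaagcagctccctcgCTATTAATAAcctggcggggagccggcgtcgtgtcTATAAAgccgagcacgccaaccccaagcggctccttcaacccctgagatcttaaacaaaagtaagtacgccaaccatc

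The window held 1 E-box, 1 MEF2 box and 1 TATAAA, and no CArG or MCAT box. Of 32851 RefSeq promoter windows of this length, 72.3% held an E-box, 3.19% a MEF2 box, 13.6% TATAAA, 14.7% an MCAT box and 1.63% a CArG box. Windows were also given for Prr33, with 6 E-boxes and none of the other 4 motifs, for 2310065F04Rik, with 1 MCAT box and 2 matches of TATAAA, and for 1700020I14Rik, with 3 E-boxes and 1 MCAT box. A match does not show that a factor binds. The 2310065F04Rik window lies at an annotated start where few reads began. No Prr33 model began at its annotated start, although the replicate 2 model of 251 reads within Tnnt3 runs across that window.

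Most Atcayos reads were on annotated transcripts, 81 (73.0%) and 61 (70.1%). Atcayos-203 led with 57 of 111 reads in replicate 1 (51.4%, exact 95% interval 41.7% to 61.0%) and 58 of 87 in replicate 2 (66.7%, 55.7% to 76.4%), a difference with an adjusted p of 0.485. Its long last exon overlaps Atcay exons over 432 bases, 14.1% of its length. Atcayos-201, whose last exon overlaps Nmrk2 by 270 bases, had 23 reads and 3 reads, and Atcayos-202 had 1 and 0.

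The choice of acceptor sets these transcripts apart. The distant acceptor, at base 81207853 beyond Nmrk2, was joined by 65 of 89 reads in replicate 1 (73.0%, exact 95% interval 62.6% to 81.9%) and by 63 of 66 in replicate 2 (95.5%, 87.3% to 99.1%). The near acceptor, at base 81197204, took the other 24 and 3 reads, and the intervals do not overlap. Over Known-class reads alone, the share of Atcayos-203 was 70.4% and 95.1%, with an adjusted p of 0.0306 by Fisher's exact test. On this measure 2 of the 3 testable loci were called, Atcayos and Norad, against a background of 0.542% of 3503 genes. Unannotated single-exon models held most of the remaining reads, with 10 reads at 81207928-81209161 as the largest in replicate 1.

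Gm20659 lies on chromosome 11 at 101971143-101971859, plus strand, and is annotated as antisense to Dusp3, a phosphatase that acts on MAP kinases. It had 98 reads (64.9 CPM) and 73 reads (62.2 CPM), a log2 ratio of -0.06 with an adjusted p of 0.938. All of them, in both libraries, lay on the same unannotated model of 1 exon at 101971649-101972950. Its annotated transcript Gm20659-201, of 2 exons, had 0 reads, which allows up to 3.06% and 4.11% of the locus.

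The model starts at the first base of the annotated last exon of Gm20659 and runs past its end. Of its 1302 bases, 16.2% lie in annotated exons of Gm20659, and 100% lie opposite the last exon of Dusp3, 101971143-101974939. Dusp3 had 113 and 120 reads on its own strand (74.9 and 102 CPM), a log2 ratio of 0.45 with an adjusted p of 0.0729. In replicate 1 Gm20659 and Dusp3 were 64.9 and 74.9 CPM, and in replicate 2 they were further apart, at 62.2 and 102 CPM. Since all 171 reads of Gm20659 lie on 1 exon opposite a Dusp3 exon, and how strand was set is not given in the sources used here, they cannot be told apart with certainty from reads of Dusp3. Gm20659 had no match in the RefSeq tables used here.

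**Figure D5:**
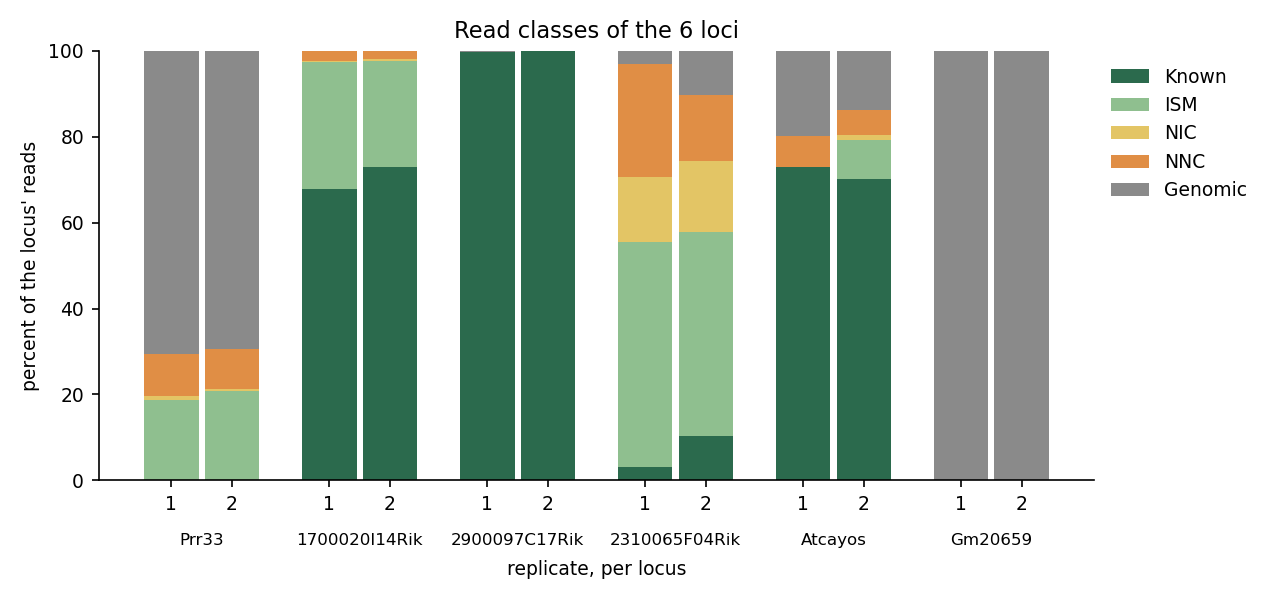
Percent of each locus' reads (y axis) by read class, for replicates 1 and 2 of each locus (x axis). Known are annotated transcripts, ISM incomplete matches, NIC new combinations of annotated splice sites, NNC models with an unannotated splice site, and Genomic the remaining reads within the gene, here mostly single-exon models. 2900097C17Rik is almost wholly Known, Gm20659 wholly Genomic, and Prr33 has no Known reads.

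Set side by side, the loci ranged from wholly annotated to wholly unannotated. The share of reads on annotated transcripts was 99.6% and 100% at 2900097C17Rik, 67.8% and 72.9% at 1700020I14Rik, 73.0% and 70.1% at Atcayos, 3.10% and 10.3% at 2310065F04Rik, and 0% in both libraries at Prr33 and Gm20659. Over the 4657 genes that reached 20 reads in both libraries the median share was 82.6%, and 1.78% of them had no such read. Over the 37 long noncoding genes among these the median was 69.0%, and 4 had none, 2 of which are Prr33 and Gm20659.

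None of the 6 loci was called for this share between libraries, against a background of 1.65%. The lowest adjusted p was 0.141, for 2310065F04Rik. Genomic-class reads, with 70.5% and 69.4% at Prr33 and 100% at Gm20659, had a median of 1.195% over the 4657 genes, of which 1.503% were over 50%. Among the 37 long noncoding genes the median was 2.11%, and 6 (16.2%) were over 50%.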

How the data were processed

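Per the file headers and the README files deposited with them, the authors' values are raw counts of long reads per transcript model, 1 table per library, from an alignment to mm10 with GENCODE M21 and models named by TALON. Models with 0 reads are not listed. Not given in the sources used here: the aligner, platform, versions, filters and how strand was handled. Spike-in reads, 2.71% and 0.590% of reads, stayed in the totals and out of the tested genes.

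For each annotated gene, counts of all its models were added up and divided by the table total. The floor for a count of 0 was 3 reads, 1.99 and 2.56 CPM. Shares carry exact 95% Clopper-Pearson intervals, which like the floors cover counting error only. Genes with at least 10 reads in total (levels), or 20 in each library (shares), were tested with Fisher's exact test and Benjamini-Hochberg adjustment over all of them, at 0.05, and ratios used a pseudocount of 1 CPM. Models were matched by intron chain. The members and lists were chosen with earlier results of these data known. The loci, their transcripts and models with at least 10 reads, their overlapping and nearest coding genes, and the 5 most read of the wider list are named. Sequences came from GENCODE M21 transcripts and, for 4 of 6 loci, RefSeq promoters. The 20 length bins hold genes by the length of their most read annotated transcript. The tests were checked on simulated counts with counting error only and no trend with length. That check does not cover further differences between these libraries. TMM came from edgeR 4.0.16 and size factors from DESeq2 1.42.0 in R 4.3.3, and the rest from Python 3.11.15 with scipy 1.17.1, numpy 2.4.6, pandas 2.3.3 and matplotlib 3.10.9.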

Additional observations from a re-analysis of the deposited data

Results flagged for a closer look

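Reads of unannotated loci across the 6 genes are in no comparison of gene levels, since those count reads assigned to annotated genes. There are no control samples, so they are set against the 3 reads that a count of 0 allows. On the strand opposite 2900097C17Rik there were 224 reads in replicate 1 and 221 in replicate 2, close to the 246 and 285 reads of the gene itself. Opposite 1700020I14Rik there were 4 and 17 reads, 15 of the latter on 1 model at 119598559-119601445 on chromosome 2. Opposite 2310065F04Rik there were 5 and 7 reads. On the same strand as Prr33, 4 reads of replicate 2 lay on an antisense-class model of 2 exons with the same 3′ end within Tnnt3, at base 142502740, and its 5′ end at 142515830. No such locus was found across Atcayos or Gm20659.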

How the results depend on the processing

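No paired analysis was possible because the libraries form 1 group. The call of 1 locus by level went to 0 with TMM scaling, with DESeq2 size factors and with a 4-fold minimum, while centring on genes of like length left 1 call but of another locus, 2900097C17Rik in place of 1700020I14Rik. Over all genes the 928 calls became 474 after centring, where Prr33 and Gm20659 have no annotated transcript to set a length, and 201 at 4-fold. The 108 calls of the most read transcript became 19 of 3503 genes (0.542%) among Known-class reads only, where 2 of 3 testable loci were called, 2900097C17Rik and Atcayos. The summed level of 1108 CPM was 467 CPM with Known-class reads only, 789 CPM without genomic reads, and 844 CPM without single-exon models over opposite coding exons, a choice made after seeing the data. It was 953 CPM without replicate 2 and 1262 CPM without replicate 1. Without genomic reads Gm20659 had 0 CPM. Of 35 such counts and sums, 25 kept their size, as counted within 1.5-fold or 1 SD. Either of 2 libraries always lies within 1 SD of their mean, so leaving 1 out counts as kept by construction. Of 76 differences of single loci, 9 changed sign, all without a call. The ratio of 2310065F04Rik went from -0.36 to 1.22 with Known-class reads only, and the share of 1700020I14Rik from 0.557 to -3.91 points among Known-class reads. Atcayos went from 0.01 to below 0 in 7 settings, as far as -0.32 without single-exon models over opposite coding exons. Depth limits the rarer models, many of which have 1 read, and with 2 libraries no spread between animals can be set beside a difference.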
